A study of Peromyscus polionotus with 11 samples.

Results

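MHC class I molecules display fragments of a cell's own proteins on its surface, where CD8 T cells and natural killer cells read them. A polymorphic heavy chain, encoded in the house mouse by H2-D1, H2-K1 and less variable relatives such as H2-T23, pairs with the light chain beta-2-microglobulin (B2m). The transporter formed by Tap1 and Tap2 pumps peptides into the endoplasmic reticulum, and tapasin (Tapbp) bridges this pump to the empty heavy chain until a peptide is bound. In brain these genes are read mainly from microglia and vessels in the resting state, interferon raises them in most cells, and in the house mouse class I proteins are also known for a role in refining synapses.

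The 7 genes were chosen by function, with earlier results of these arrays known. Which measured values weighed in the choice is not recorded, so values of these genes are descriptions here and carry no test. Every probe set whose only gene symbol is 1 of the 7 was taken, which gave 22 of the 22626 probe sets that are not controls. They stand for 6 of the 12393 genes that have a probe set of their own: 9 probe sets for H2-D1, 4 for H2-K1, 4 for Tap1, 2 for B2m, 2 for Tapbp and 1 for Tap2. H2-T23 had no probe set to itself. Its 2 probe sets carry further symbols, and with 3 others of that kind they were left out. These 5 read between 11 and 32.

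Total RNA was taken from micropunched brain nuclei of Peromyscus polionotus, the oldfield mouse, in long or in short days, and hybridised to 11 arrays. The medial preoptic area (MPOA), a hypothalamic centre of sexual and parental behaviour, was sampled 3 times in each day length. The bed nucleus of the stria terminalis (BNST), a relay between amygdala and hypothalamus, was sampled 3 times in long days and 2 times in short days. The study calls the samples independent. The labels do not state strain, age, sex, hours of light or whether a sample pooled several mice. The study asked how day length changes gene expression in these nuclei.

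Values are linear intensities in whole numbers, with a median of 19 on every array. The probe sets are named after house mouse genes. How far sequence differences between the species lower each signal was not measured, and class I heavy chains are among the most variable genes of mammals, so levels of different probe sets are set only against the array median. On the first principal component, which held 23.2% of the variance, the short-day MPOA array 6 lay at -31.2 and the other arrays between -6.63 and 25.4. Along it the long-day BNST arrays lay at 25.4, 19.3 and 7.57 and the short-day BNST arrays at -2.38 and -6.63, without overlap. Preoptic and hypothalamic markers summed to 3406 to 4634 on MPOA arrays and 2509 to 3054 on BNST arrays, so the nuclei did not overlap. BNST markers summed to 1154 to 1785 on MPOA arrays and 1716 to 2443 on BNST arrays, so there the nuclei overlapped. Without their widest-ranging probe set (Zic1) the sums were 657 to 1361 and 1373 to 1697, so the nuclei did not overlap. The BNST markers did not all go 1 way: of 9 probe sets, 5 were higher and 4 lower in the BNST than in the MPOA. With limma, adjusted over all probe sets, Prkcd (adjusted p = 0.00137) and Meis2 (adjusted p = 0.0256) were higher in the BNST. A probe set of Lhx6 was lower there (adjusted p = 0.0485, limma). Within the BNST all these markers summed to 1945 to 2443 in long and 1716 to 1865 in short days without overlap. Without Zic1 they summed to 1468 to 1676 and 1373 to 1697, which overlapped. The part of this shift in the BNST values below was not tested.

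H2-D1, a classical heavy chain, held the probe sets with the widest range over the arrays and the largest differences between day lengths in the BNST. Its brightest probe set, 1452544_x_at, read 571, 414 and 571 on the long-day MPOA arrays 1 to 3 and 478, 383 and 739 on the short-day arrays 4 to 6. In the BNST it read 287, 407 and 489 in long days and 707 and 894 in short days. The day lengths overlapped in the MPOA, where short-day array 6 was the highest, and did not overlap in the BNST. The order of the group means was BNST in long days (394 ± 102, SD, n = 3), MPOA in long days (519 ± 90.6, n = 3), MPOA in short days (533 ± 184, n = 3) and BNST in short days (800 ± 132, n = 2). The first 3 of these overlapped each other, and MPOA and BNST in short days overlapped through array 6. Short minus long days came to 1.05 ± 0.24 (SE) on the log2 scale in the BNST, a ratio of 2.06, and to 0.00 ± 0.21 in the MPOA.

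A difference this high or higher was found for 8 of all 22626 probe sets in the BNST, itself included. Leaving out 1 array at a time kept it between 0.83 and 1.22. In the MPOA the value moved with single arrays, to -0.26 once the highest, array 6, was left out and to 0.21 once the lowest, array 5, was.

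A second H2-D1 probe set, 1427651_x_at, followed the same course at a lower level. Its MPOA values were 130, 102 and 130 (long days) against 113, 91 and 177 (short days), and its BNST values 75, 97 and 116 against 161 and 179. Array 6 was again the highest of the MPOA, and the BNST groups did not overlap. Its log2 difference was 0.85 ± 0.22 in the BNST and 0.03 ± 0.20 in the MPOA, with -0.24 in the MPOA when array 6 was left out. Another, 1425614_x_at, went from 37, 50 and 49 to 63 and 60 with short days in the BNST, a difference of 0.45 ± 0.18. Its MPOA values were 50, 42 and 54 against 42, 43 and 64, again highest on array 6.

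Over the 11 arrays the brightest of these probe sets had a Pearson correlation of 0.99 with 1427651_x_at (Spearman 1) and 0.91 with 1425614_x_at (Spearman 0.85). Without the 2 arrays farthest from the median the Pearson values were 0.99 and 0.88. They were 0.98 and 0.88 when each value was taken relative to its group mean. These are descriptions with no p, since the probe sets are named after 1 gene, share the arrays and end in _x_at, which marks probes that match other transcripts too. Paralogous class I genes therefore cannot be told apart in them.

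The other 6 H2-D1 probe sets lay in a narrower range in the BNST. Of the 6, 1426324_at and 1451934_at do not end in _x_at. For the first, long-day values of 39, 45 and 47 stood against short-day values of 45 and 65, so the groups touched (0.31 ± 0.17, with 0.05 when short-day array 5 was left out and 0.58 when array 4 was). For the second, values of 27, 27 and 28 stood against 36 and 30 without overlap (0.27 ± 0.15). For 1425545_x_at, 1451784_x_at, 1450170_x_at and 1451683_x_at the differences were 0.19, 0.36, 0.20 and 0.36. The last of these read only 8 to 13 over the arrays, and with 10 added to each value before the log its difference was 0.19. All 9 H2-D1 probe sets thus lay above 0 in the BNST, from 0.19 to 1.05 with a median of 0.36, and 7 of the 9 lay wholly higher in short days, beside 10.2% of all probe sets that did and 13.5% that lay wholly lower. In the MPOA they ran from -0.09 to 0.11 with a median of 0.02.

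**Figure D1:**
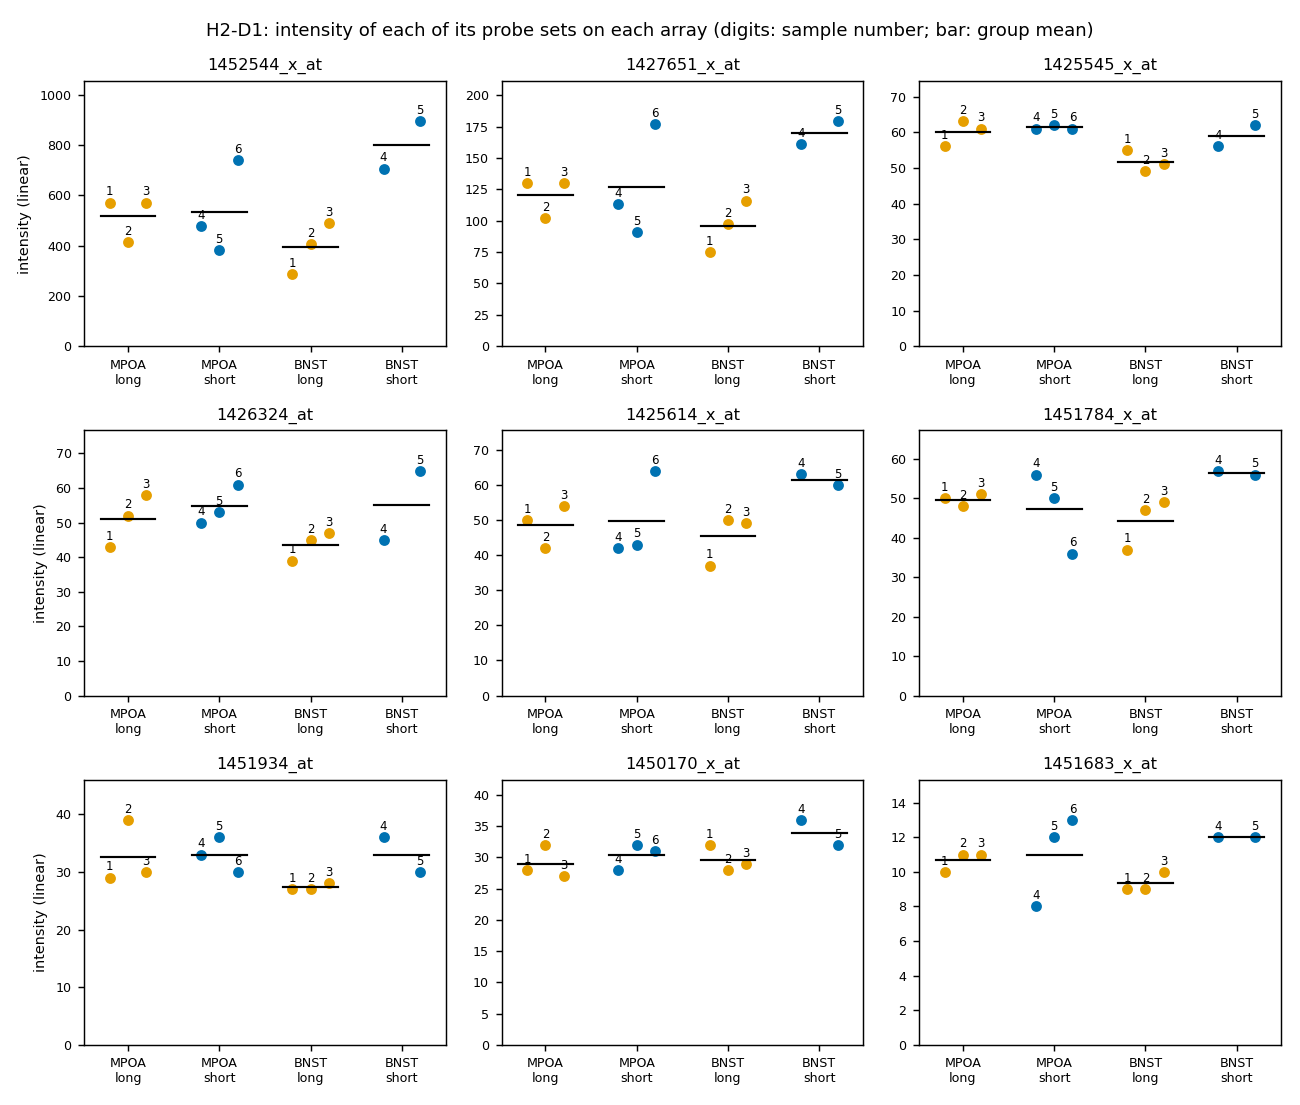
Intensity (linear scale from 0, vertical axis) of the 9 H2-D1 probe sets on each array, by nucleus and day length, with the sample number at each point and the group mean as a bar. In 1452544_x_at and 1427651_x_at the short-day BNST arrays 4 and 5 and the short-day MPOA array 6 are the 3 highest of the 11, while the other panels vary less.

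The 4 probe sets of H2-K1, the other classical heavy chain of the rule, went both ways in the BNST. Its probe set 1451931_x_at had long-day values of 31, 41 and 29 against short-day values of 37, 33 and 42 in the MPOA, and 26, 33 and 27 against 39 and 32 in the BNST. The groups overlapped in both nuclei, with differences of 0.16 ± 0.15 and 0.31 ± 0.17. The probe set 1450534_x_at went the other way in the BNST, from 32, 31 and 24 to 25 and 24 (-0.23 ± 0.19), and 1427746_x_at was at -0.12 ± 0.16. The probe set 1425336_x_at, at 7 to 11 on all arrays, went from 7, 7 and 8 to 9 and 10 with short days in the BNST (0.37 ± 0.14). With 10 added to each value before the log it was 0.17.

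B2m, the light chain that every class I molecule needs, read below the array median on all arrays. Its probe set 1449289_a_at ranged from 8 to 12 and 1452428_a_at from 9 to 12. The differences between day lengths were -0.15 and 0.00 in the MPOA and -0.09 and 0.06 in the BNST, each within 2 SE. In whole numbers at this level a step of 1 unit is a large share of the signal, so small changes of B2m were not detectable with these probe sets.

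The peptide pump differed little between groups. The single Tap2 probe set, 1453913_a_at, stood at 68, 68 and 70 (long days) against 58, 65 and 66 (short days) in the MPOA, a difference of -0.13 ± 0.13 without overlap. In the BNST the values were 76, 69 and 60 against 64 and 68, which overlapped (-0.04 ± 0.14). The brightest probe sets of Tap1, 1448177_at and 1416016_at, were at 0.11 ± 0.13 and -0.22 ± 0.15 in the MPOA and both at 0.07 in the BNST. The short-day MPOA array 6 read 34 on the first, its highest MPOA value, and 19 on the second, its lowest of all. The remaining Tap1 probe sets stayed between 9 and 18 and had BNST differences of 0.20 ± 0.18 and 0.14 ± 0.19.

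In the BNST, the probe sets of Tapbp, the bridge between pump and heavy chain, had higher means in short than in long days. Its probe set 1421812_at went from 32, 33 and 33 to 45 and 41 there, without overlap (0.40 ± 0.19). Its MPOA values were 43, 32 and 40 against 44, 28 and 26, which overlapped (-0.26 ± 0.17). The other probe set, 1450378_at, went from 22, 19 and 17 to 22 and 24 in the BNST, so its groups touched (0.26 ± 0.15), and it was at -0.08 ± 0.14 in the MPOA.

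**Figure D2:**
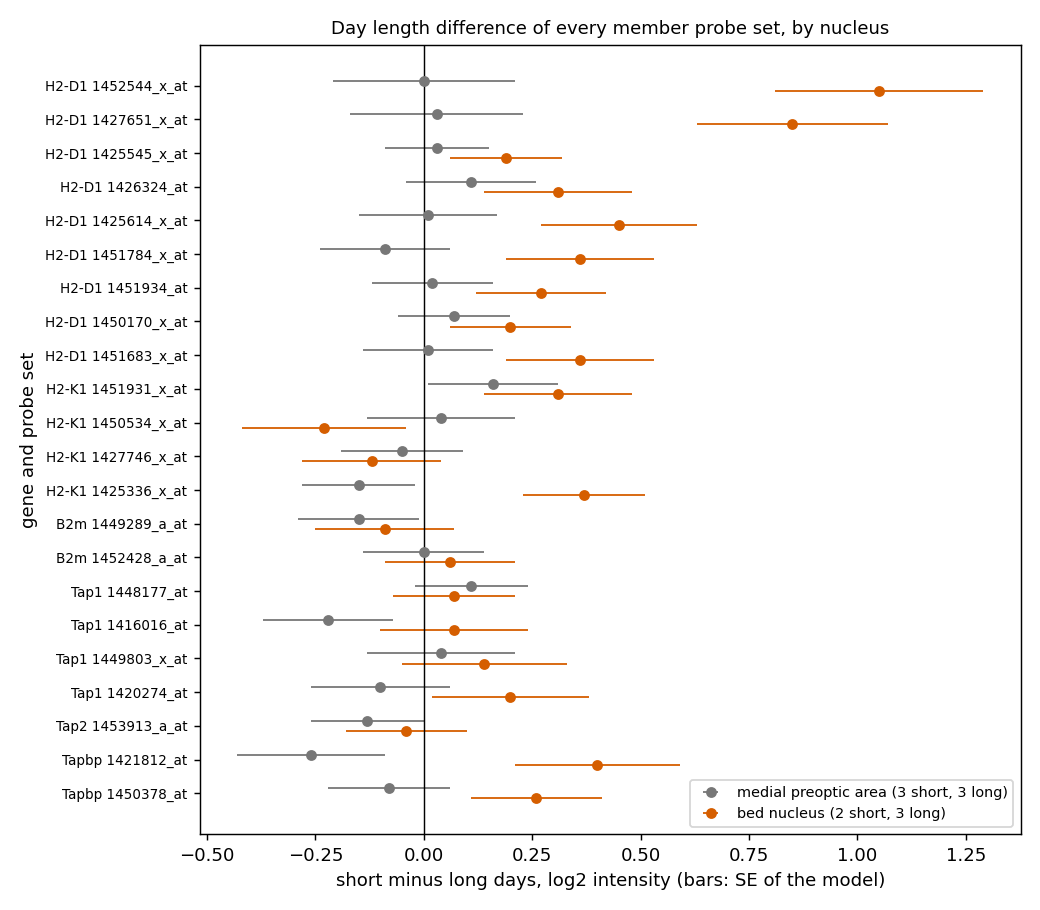
Short minus long days in log2 intensity (horizontal axis, bars are the SE of the model) for each of the 22 probe sets, in the MPOA (grey) and in the BNST (orange). All 9 H2-D1 probe sets lie above 0 in the BNST, led by 1.05 and 0.85, while the MPOA values of all 22 lie between -0.26 and 0.16.

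Counted over the 22 probe sets, 18 were above 0 and 4 below in the BNST, with a median log2 difference of 0.23. Over all 22626 probe sets the median was -0.01, and 47.2% were above 0. In the BNST 9 of the 22 lay wholly higher in short days (10.2% of all did), 7 of them of H2-D1, 1 of H2-K1 and 1 of Tapbp. There 0 lay wholly lower (13.5% of all did). The probe sets are not independent, since 9 carry the same gene name, and the median was 0.14 over the 10 that do not end in _x_at. Without the short-day BNST array 4 the median was 0.15. In bulk tissue a change in the number of cells that carry a transcript and a change per cell cannot be told apart.

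In the MPOA 12 were above 0, 9 below and 1 at 0, with a median of 0.01 beside 0.00 over all probe sets. There 0 lay wholly higher (2.64% of all did) and 1, the Tap2 probe set, lay wholly lower (2.55% of all did). Without long-day array 2 the median was -0.06 and without short-day array 6 it was -0.04.

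With limma and Benjamini-Hochberg adjustment over all probe sets at 0.05, 0 of the 22 passed between day lengths in the BNST, where 0.0442% of all probe sets did. In the MPOA 0 of 22 passed beside 0% of all. At an unadjusted p under 0.05 the counts were 7 of 22 in the BNST, beside 12.7% of all, and 0 of 22 in the MPOA, beside 3.50%. Since the genes were chosen with results known, nothing is read from these counts. All 11 arrays share 1 estimate of spread. Without the short-day MPOA array 6 the brightest H2-D1 probe set passed in the BNST at the same difference (1.05 ± 0.20). No other array left out made a member pass. The BNST count over all probe sets was also highest without array 6 (see the closing section), and nothing is read from this pass either.

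The effect of day length in the BNST minus that in the MPOA had a median of 0.22 over the 22, with 19 above 0 and 3 below. Over all 22626 probe sets the median was -0.02, and 47.3% were above 0. Of the 22, 9 carry the name of H2-D1 and are not independent. The difference of the effects was 1.04 ± 0.32 for 1452544_x_at, 0.82 ± 0.30 for 1427651_x_at and 0.66 ± 0.25 for Tapbp 1421812_at. Here too 0 of 22 passed, beside 0% of all probe sets, and at an unadjusted p under 0.05 the counts were 4 of 22 and 8.34% of all. This contrast uses the same samples as those within a nucleus. The median was 0.15 without the short-day MPOA array 4.

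Between the nuclei, averaged over day lengths, the class I pathway differed little. The BNST minus MPOA differences ran from -0.18 (H2-K1 1425336_x_at) to 0.18 (Tap1 1420274_at), with a median of 0.07 beside 0.00 over all. Of the 22, 0 passed with limma, beside 1.03% of all probe sets, and 0 had an unadjusted p under 0.05, beside 11.9%. In all 22 the nuclei overlapped, whereas of all probe sets 0.703% lay wholly higher and 0.769% wholly lower in the BNST. The 4 Tap1 probe sets were all slightly above 0 (0.09 to 0.18), and the 9 of H2-D1 ranged from -0.14 to 0.11.

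**Figure D3:**
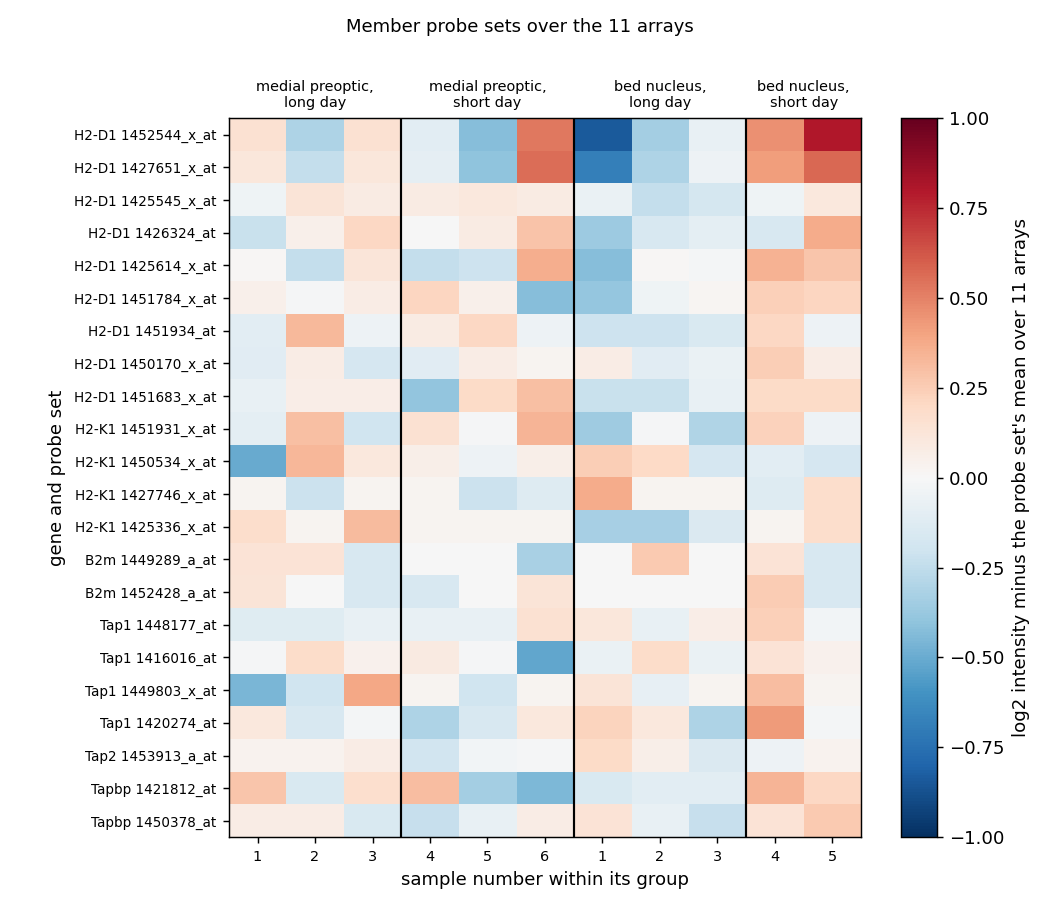
Log2 intensity of each of the 22 probe sets (rows) relative to its own mean over the 11 arrays (columns, by group and sample number; red above, blue below the mean). The first 2 rows, the brightest H2-D1 probe sets, are lowest on the long-day BNST array 1 and high on the short-day BNST arrays 4 and 5 and the short-day MPOA array 6, a course that most other rows do not share.

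The members did not vary as 1 block over the arrays. Against the brightest H2-D1 probe set, Pearson correlations over the 11 arrays were 0.65 for H2-K1 1425336_x_at and 0.37 for Tapbp 1421812_at. For the H2-D1 probe sets not compared earlier they were 0.64 (1426324_at), 0.58 (1451683_x_at), 0.35 (1451784_x_at), 0.29 (1425545_x_at), 0.14 (1450170_x_at) and 0.06 (1451934_at). They were 0.25 and -0.25 for the brighter Tap1 probe sets, -0.26 for Tap2, 0.13 and -0.45 for B2m and -0.50 for H2-K1 1450534_x_at. All of these are across arrays that share groups and normalization.

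The probe sets of other genes that followed the brightest H2-D1 probe set most closely were named for Pnrc2, a coactivator of nuclear receptors, and Spint2, an inhibitor of serine proteases. Among 10284 probe sets above the median level they had Pearson correlations of 0.99 each over the 11 arrays (Spearman 0.98 and 0.95). The correlations were 0.99 each for deviations from the group means. For Spint2 the BNST values were 78, 115 and 140 against 208 and 266. Its MPOA values were 176, 118 and 161 against 146, 119 and 207. That is the same order of groups as H2-D1, with array 6 again the highest of its nucleus.

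Further genes of this course, picked after their values were seen, were the maternally expressed noncoding RNA Meg3 (Pearson 0.99), the hair protein gene Krtap5-1 (0.97) and Iapp, the amyloid peptide of pancreatic islets (0.94). Others as close were Eif2b2 (0.98), Cd99l2 (0.97), Lyz1 (0.96), Fcgr2b (0.95) and Oas1e (0.94). Krtap5-1 went from 303, 414 and 495 to 602 and 713 with short days in the BNST, and read 701 on the short-day MPOA array 6. The brightest H2-D1 probe set also had a Pearson correlation of -0.76 with the first principal component. The part of this shared variation in the H2-D1 difference was not tested.

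**Figure D4:**
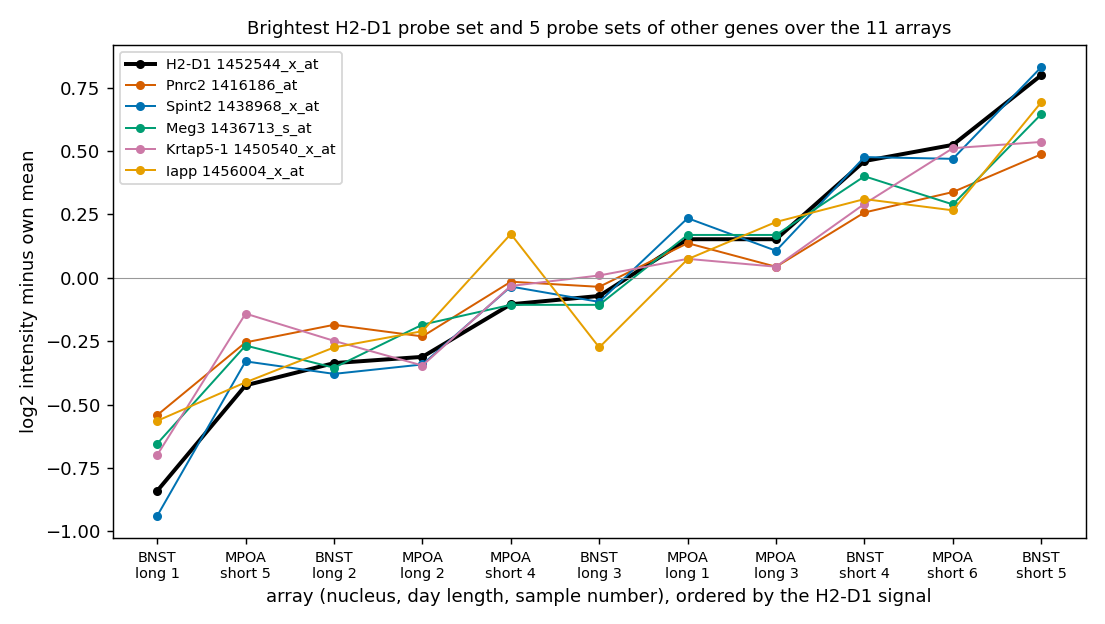
Log2 intensity minus its own mean over the 11 arrays (vertical axis) for the brightest H2-D1 probe set (black) and for 5 probe sets of other genes, with arrays ordered by the H2-D1 signal. The curves run together from the long-day BNST array 1 up to the short-day BNST array 5, with Iapp departing most in the middle, and long- and short-day arrays of the MPOA are mixed along the axis.

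For the other genes the closest courses were those of Rnps1 (0.93) and Rabep1 (0.89) for H2-K1, Limk2 and Slain1 (0.91 each) for B2m, and Aen (0.87) and Rrp1 (0.86) for Tap1. They were Dlx5 and Emilin1 (0.88 each) for Tap2, and Necap2 (0.90) and Prmt3 (0.86) for Tapbp. Each pair ranks first and next among 10284 Pearson correlations over 11 arrays. Without the 2 arrays farthest from the median the values for B2m were 0.77 and 0.74.

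Genes around the class I pathway were read from lists set up with earlier results of these data known. None of the measured genes of 6 of these 7 lists passed with limma in any of the 4 comparisons, and the list of class I receptors gave 1 call, between the nuclei, where 1.03% of all probe sets passed. The counts of unadjusted p-values under 0.05 in the BNST below stand beside 12.7% of all probe sets. Several of the genes named have further probe sets, which often differ from the one with the smallest p. Among the 14 measured further class I and class I-like heavy chains (18 probe sets), 13 probe sets were above and 5 below 0 in the BNST (median 0.11), with 5 unadjusted p-values under 0.05, 3 higher and 2 lower. H2-Q2 was at 0.42 ± 0.14 there (adjusted p = 0.193, limma) at intensities of 9 to 14. Hfe, the iron-regulating class I-like protein, was at -0.45 ± 0.17 on 1 probe set (adjusted p = 0.262, limma) and at 0.29 on the other. For H2-T3, a nonclassical heavy chain, the BNST effect minus the MPOA effect was 0.87 ± 0.28 on its brighter probe set (adjusted p = 0.470, limma) and 0.14 on the other. On the brighter its BNST values were 60, 83 and 84 against 109 and 106, and the MPOA values 95, 102 and 97 against 107, 79 and 54, so array 6 was here the lowest and not the highest.

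Upstream of the pump stand the immunoproteasome, which cuts class I peptides, and its activator PA28. Of 4 measured genes 1 was above and 3 below 0 in the BNST (median -0.23), with 1 unadjusted p under 0.05. Psmb8, a catalytic subunit, went from 28, 24 and 29 to 21 and 20 (-0.39 ± 0.15, adjusted p = 0.268, limma). Of the 14 measured loading and trimming genes (32 probe sets) 13 probe sets were above and 19 below 0 in the BNST, with a median of -0.06 and 2 unadjusted p-values under 0.05. Sec61a1, a channel protein of the endoplasmic reticulum, was at 0.35 on 1 of its 6 probe sets and between -0.31 and 0.18 on the others, and the peptidase Thop1 was at -0.34 and 0.20 on its 2. In the MPOA the tapasin relative Tapbpl was at 0.37 ± 0.12 on 1 probe set (adjusted p = 1, limma), at intensities of 9 to 13, and at -0.01 on the other.

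The regulators of class I transcription and interferon signalling (22 genes, 37 probe sets) had 19 probe sets above and 18 below 0 in the BNST, with a median of 0.00 and 4 unadjusted p-values under 0.05. Jak1, an interferon receptor kinase, was at -0.39 (adjusted p = 0.237, limma), -0.17 and 0.14 on its 3 probe sets. The interferon receptor chain Ifnar2 was at 0.44 (adjusted p = 0.247, limma) and 0.08 on its 2. The interferon-stimulated genes (27 genes, 35 probe sets) had 19 above and 16 below 0, with a median of 0.06 and 1 unadjusted p under 0.05. Ifit1, an antiviral RNA-binding protein, was at 0.46 ± 0.15 (adjusted p = 0.202, limma) at intensities of 10 to 17. In the MPOA the interferon-stimulated list had 11 above and 22 below 0, with a median of -0.04. The class II genes (7 genes, 10 probe sets) had 5 above and 5 below 0 in the BNST, with a median of -0.01 and 0 unadjusted p-values under 0.05.

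The receptors that read class I on other cells (10 genes, 15 probe sets) had 11 above and 4 below 0 in the BNST. A probe set of Cd8a, the co-receptor of cytotoxic T cells, was higher in the BNST than in the MPOA by 0.42 ± 0.09 (adjusted p = 0.0291, limma), from 13 to 16 in the MPOA to 18 to 20 in the BNST, around the array median, and its other probe set was at 0.15. Klrc1, an inhibitory natural killer cell receptor, was at 0.59 ± 0.17 between day lengths in the BNST on 1 probe set (adjusted p = 0.153, limma), at intensities of 10 to 17, and at 0.00 on the other.

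Markers of cells that could carry class I RNA were set beside these values. Microglial markers (12 of 13 genes measured, 4 above the array median) summed to 376 to 396 in long and 374 to 406 in short days in the BNST. Endothelial markers (11 of 11, 7 above the median) summed to 4037 to 5051 and 4323 to 5094. T, B and natural killer cell markers (12 of 14, 3 above the median) summed to 193 to 206 in long and 208 to 210 in short days, so they did not overlap there, but without Cd2 they did, at 166 to 184 and 183 to 189. In the MPOA they summed to 197 to 207 and 201 to 216. Ependymal and choroid markers (6 of 8) summed to 207 to 233 in long and 183 to 191 in short days in the BNST, without overlap. Without 1 probe set of Ttr the BNST sums were 149 to 152 and 123 to 132, still without overlap. Of the 9 probe sets of these markers, 3 were above and 6 below 0 there. In the MPOA the sums with all probe sets were 194 to 205 and 191 to 213. Meningeal markers (6 of 6) summed to 683 to 1107 in long and 381 to 651 in short days in the BNST, and 390 to 489 and 577 to 1106 in the MPOA. Without 1 probe set of Ptgds, a prostaglandin synthase, the BNST sums were 200 to 218 and 194 to 200. No marker value was 0. The part of these cells in the H2-D1 values was not tested.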

How the data were processed

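The authors deposited 1 table of 22690 probe sets by 11 arrays, holding intensity values that are not logged. RMA version 3.4 is named in the submitters' processing notes, and nothing further is known here of their steps. The values are whole numbers, and rounding matters for dim probe sets: 51.1% of all values were 19 or less. The number of arrays limits the precision. After 64 control probe sets were set aside, log2 of each value was fitted with limma 3.58.1 in R 4.3.3 (4 group means, 7 residual and 12.9 prior degrees of freedom). Of the 22626 probe sets, 20380 carry 1 gene symbol in the platform annotation, 691 several and 1555 none, and only the first were named. Some symbols can be old. Tests were two-sided and adjusted over all probe sets. No 2 arrays were identical. The fit was tested on simulated data with noise drawn independently for each probe set and array. Those data lack the variation that probe sets share over the arrays, so the test cannot show how calls behave under it. Alternatives were quantile normalization, median centring, leaving out dim probe sets, a robust prior with a trend, 10 added before the log, 1 nucleus alone, 1 probe set per gene, a replicate block and each array left out.

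The members, lists and alternatives were chosen with earlier results of these data known. All probe sets of the members are described. From each list, genes that passed and up to 2 genes with the smallest p per comparison were eligible for naming, and the text names a selection of these. The 2 probe sets most alike each member gene were taken against its brightest probe set. Sample numbers shared by the nuclei were not taken as pairs, since the labels do not say whether they mark the same mice (see the replicate block in the closing section).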

Additional observations from a re-analysis of the deposited data

Results flagged for a closer look

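For H2-K1 1425336_x_at every short-day array of the MPOA read below the long-day mean and every short-day array of the BNST read above its own long-day mean. Long-day against short-day values were 10, 9 and 11 against 9, 9 and 9 in the MPOA and 7, 7 and 8 against 9 and 10 in the BNST. The BNST effect minus the MPOA effect was 0.52 on the log2 scale. With 10 added before the log it was 0.24. It did not pass with limma adjusted over all probe sets, as none of the 22 did, and beyond that fit the difference was not tested, since the gene was chosen with results known. All its values, 7 to 11, lie under the array median of 19.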

How the results depend on the processing

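The median over the 22 probe sets in the BNST (0.23) was 0.17 with 10 added before the log, 0.14 without probe sets ending in _x_at and 0.15 to 0.28 with 1 array left out. The value of 0.15 was without short-day array 4. In the MPOA it was -0.06 with 1 probe set per gene, -0.09 without those ending in _x_at and -0.06 to 0.02 with 1 array left out. For the effect in the BNST minus that in the MPOA (0.22) it was 0.16 with 10 added, 0.12 with 1 probe set per gene, 0.16 without the 3 H2-D1 probe sets that vary together and 0.15 to 0.29 with 1 array left out. The settings without _x_at and without the 3 H2-D1 probe sets were chosen after seeing the data. The causes were not tested.

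Leaving out 1 array gave 0 to 1 members past the threshold in the BNST. Over all probe sets it gave 0 to 38 in the BNST (10 with all arrays), 0 to 1 in the MPOA (0), 0 to 5 for the difference of the effects (0) and 70 to 224 between the nuclei (233). The highest BNST count, 38, was without the short-day MPOA array 6, and without the short-day BNST arrays 4 and 5 it was 1 and 0. Each array left out moved the BNST count by over 1.5 times except the short-day MPOA array 5 and the long-day BNST array 3. The BNST arrays alone gave 0. With the sample number as a replicate block the counts over all probe sets were 10 in the BNST and 244 between the nuclei, and no call of a member changed. Deviations of same-numbered samples of the 2 nuclei correlated between -0.03 and 0.07, and the numbers were not taken as pairs. These correlations cannot show whether same-numbered samples came from the same mice.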

Other observations

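Over the 11 arrays 58 probe sets had a Pearson correlation above 0.9 with the brightest H2-D1 probe set, of which 2 are of H2-D1 themselves and 46 carry a single symbol of another gene (44 genes). None is in the list of interferon-stimulated genes, but that list leaves out Oas1e, an Oas family gene among the 58 (Pearson 0.94). Over the 58 the differences between short and long days in the BNST ran from 0.38 to 1.17 on the log2 scale. Their choice by likeness to this probe set fixes that direction. Names ending in _x_at made up 22.4% of the 58 and 6.68% of all probe sets, and 8 of the 15 with a correlation above 0.95. For 26 of the 58 the correlation of deviations from the group means was also above 0.9. The correlations are across arrays that share groups and normalization and are given with no p.

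Summed marker levels had Pearson correlations with the same H2-D1 probe set of -0.04 for microglia, 0.24 for endothelium, 0.42 for T, B and natural killer cells and -0.64 for ependyma and choroid plexus, over the same 11 arrays. They were -0.40 for BNST markers, -0.37 for meninges, -0.35 for neurons and -0.09 for preoptic markers.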
